A study of Mus musculus with 2 samples.

Results

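The suppressors of cytokine signalling Socs1, Socs2, Socs3, Socs4, Socs5 and Socs6, and the related gene Cish, were examined in single-cell RNA libraries of mouse bone marrow derived macrophage cultures. The 7 genes were taken by symbol from the 31053 genes that both libraries list, and all 7 were found. The cultures came from wild-type 129Sv mice, and marrow cells had been grown with 10% fetal bovine serum and 50 ng/ml M-CSF, under which marrow cells mature into macrophages. On day 7, the THP group received 1 µg/ml of a truncated Tamm-Horsfall protein (uromodulin, a kidney protein) that does not polymerize, and the vehicle group received 5% dextrose, each for 18 h. Each group is 1 library, so no difference has a replicate check, the number of mice was not given in the labels, and treatment cannot be told apart from culture dish or library preparation. Below, with THP and with vehicle name these 2 libraries. Intervals in the text are 95% intervals for counting error only.

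SOCS proteins are feedback brakes on cytokine receptors. Ligand binding activates JAK kinases at the receptor, the kinases phosphorylate STAT transcription factors, and the STATs switch on target genes that include several SOCS genes. The SOCS proteins then bind the receptor or the kinase through an SH2 domain and, through their SOCS box, recruit a ubiquitin ligase. Socs1 is known as the brake on interferon receptors and Socs3 as the brake on receptors that use gp130 and on the G-CSF receptor. Cish and Socs2 are known targets of STAT5 that restrain growth hormone and related cytokine receptors. Socs4, Socs5 and Socs6 are less studied and have been linked to receptor tyrosine kinases.

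STAT dimers bind a palindrome written TTCNNNGAA, so the windows of 250 bases before to 50 bases after the RefSeq start site (GRCm38.p6) were searched for it and for the same palindrome with 4 bases between its arms, the spacing that STAT6 prefers. Both are palindromes, so 1 strand covers both strands. RefSeq windows were matched for 4 members, Socs1, Socs3, Socs4 and Cish. The sites found in these windows are shown here, since they are the matches to the STAT element among the members searched; each line is 30 bases, 5′ to 3′ on the strand of the gene, with the matches in capitals. For Socs3 the stretch is chr11:117969501-117969530 on the minus strand and for Cish it is chr9:107296654-107296683 on the plus strand.
Socs3: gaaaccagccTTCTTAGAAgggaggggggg
Cish: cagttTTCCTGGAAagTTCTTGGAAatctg
The Socs3 window held 1 match, starting at position 97 of the window. The Cish window held 2, at positions 251 and 262, which lie at and just after the RefSeq start site. In GENCODE M21 the Cish gene begins upstream of its window, at 107296026, and the Socs3 gene likewise, at 117970047. The windows of Socs1 and Socs4 held no match to either motif, which says only that these letters are not in those windows. Of all 32851 windows of the same length, 8.30% held TTCNNNGAA at least once and 0.457% held it at least 2 times, and 6.95% held the wider form. A match is a description of the sequence and not a bound site.

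After a filter on genes, UMIs and mitochondrial share, 12123 THP cells with a median of 16113 UMIs (unique molecular identifiers, 1 per captured RNA molecule) and 10978 vehicle cells with a median of 17223 were kept. The libraries shared 42 cell barcodes. Cells were placed in 11 gates by the share of their UMIs that fell on marker genes. The macrophage gate (C1qa, C1qb, C1qc, Adgre1, Mertk, Fcgr1 and Mrc1) held 30.6% of THP cells and 20.2% of vehicle cells, so the labelled cell type was a minority of either library under this cut. Over all cells these 7 markers summed to 1363 CPM (UMIs per 1000000) with THP and 1071 CPM with vehicle. The immature neutrophil gate held 9.81% and 14.1%, the myeloid progenitor gate 9.70% and 13.6%, the monocyte gate 8.02% and 10.9%, the MHC class II high gate 6.71% and 7.74%, the osteoclast-like gate 4.62% and 5.29%, and the mature neutrophil gate 4.30% and 6.91%. Smaller gates held stromal cells (80 and 71), lymphoid cells (89 and 70), B-lineage cells (77 and 57) and mast cells or basophils (59 and 46). No gate took 23.8% of THP and 18.9% of vehicle cells. The macrophage and monocyte gates are ranges on a continuous share: 1304 THP and 757 vehicle cells lay close to the macrophage cut on either side, and 1129 and 1347 close to the monocyte cut. The median cell of the macrophage gate had 2133 UMIs of macrophage markers per 1000000 with THP and 2464 with vehicle, and 87.8 and 100 of monocyte markers. Of the 1176 THP and 1498 vehicle cells in the myeloid progenitor gate, only 184 and 214 passed no other gate. The median cell of this gate had 3040 and 3077 UMIs of monocyte markers per 1000000, above the monocyte cut of 2000. The progenitor values below are thus not those of a cell type apart from monocytes.

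Levels are given as UMIs per 1000000 UMIs of the cells summed (CPM). They are not compared between genes. Among the members, 4 of 7 reached 10 CPM in at least 1 library (Socs3, Socs4, Socs5 and Socs6), and 1 of these, Socs3, was called, that is, at least 2-fold apart on the scale of CPM + 1. Among all 8012 genes at that level, 0.911% were called higher with THP, 2.97% lower and 3.88% either way. The log2 ratio, THP over vehicle, was above 0 for 3 members and below 0 for 4, with a median of -0.10, beside a median of -0.18 over the 8012 genes. With TMM scaling 5 of 7 members were above 0, and their median of 0.07 lay below that of all genes, which moved from -0.18 to 0.11. With the length correction 6 of 7 were above 0. With TMM scaling Socs3 was still the 1 member called, beside 1.73% of all genes called higher.

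**Figure D1:**
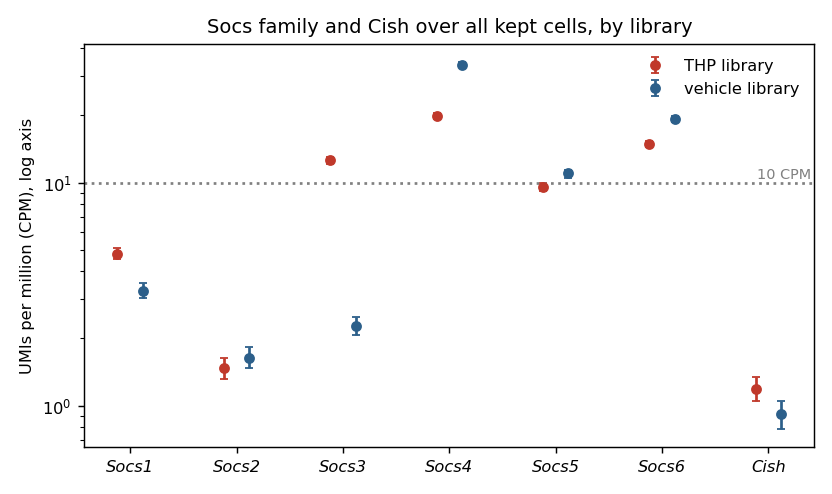
Points are CPM of each gene over all kept cells of the THP library (red) and the vehicle library (blue) on a log axis, bars are exact Poisson 95% intervals, and the dotted line is the 10 CPM minimum. Socs3 is at 12.6 CPM against 2.27 CPM, Socs4 at 19.9 CPM against 33.8 CPM, and the intervals of Socs2 overlap.

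Socs3 (ENSMUSG00000053113, chromosome 11, 117966079 to 117970047, minus strand; positions here and below are those of GENCODE M21 on GRCm38) had 2827 UMIs with THP, or 12.6 CPM, and 472 UMIs with vehicle, or 2.27 CPM (2.07 to 2.49). The THP level was 5.53-fold that of vehicle (5.02 to 6.11), and the log2 ratio of 2.05 was above that of 99.8% of genes of at least 10 CPM. A Socs3 UMI was found in 1897 THP cells and 359 vehicle cells, and 547 and 50 cells had 2 or more. Thinning each cell to 5000 UMIs evens out depth but leaves out the 1958 THP and 1966 vehicle cells that are shallower, among them 498 of 521 and 734 of 759 mature neutrophils. Of the 10165 and 9012 cells left, 4.96% (4.54 to 5.40, exact binomial) and 0.899% (0.714 to 1.12) had a Socs3 UMI. Of all kept cells, without thinning, 15.6% and 3.27% had one.

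The Socs3 difference was seen in each of the 7 gates with at least 200 cells in both libraries, and it was not of one size. In the macrophage gate Socs3 was at 14.0 CPM (13.2 to 14.7) with THP and 1.27 CPM (1.000 to 1.60) with vehicle, which is 11.0-fold (8.67 to 14.0). The ratio was 5.09-fold (3.79 to 6.94) in the MHC class II high gate, 5.75-fold (3.04 to 11.8) in the osteoclast-like gate, 4.95-fold (3.35 to 7.47) in the monocyte gate and 3.46-fold (2.14 to 5.75) in the immature neutrophil gate. It was 2.58-fold (1.88 to 3.55) in the myeloid progenitor gate and 2.37-fold (1.31 to 4.40) in the mature neutrophil gate. Cells in no gate had 7.18-fold (5.70 to 9.16). The counting interval of the macrophage gate lay above those of the MHC class II high, monocyte, immature neutrophil, progenitor and mature neutrophil gates and overlapped that of the osteoclast-like gate. Whether the ratios differ beyond culture-to-culture variation cannot be tested with 1 library per group.

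By the size rule Socs3 was called in 3 of the 7 gates, those where it reached 10 CPM: macrophage (where 0.996% of all genes of that level were called higher), MHC class II high (1.15%) and mature neutrophil (3.42%). It was also called in the cells of no gate (1.07% of genes). In the immature neutrophil (1.93% of genes called higher), progenitor (1.05%), monocyte (0.878%) and osteoclast-like (0.678%) gates no member was called higher. No member was called lower in any gate. The share of all genes called lower was 19.9% in mature and 4.88% in immature neutrophils, 4.65% in the MHC class II high gate, 2.80% in monocytes, 2.76% in macrophages, 2.11% in progenitors, 2.07% in the osteoclast-like gate and 3.39% in no gate. With only the cells that passed 1 gate, with thresholds halved or with thresholds doubled, the log2 ratio in the macrophage gate ran from 2.70 to 2.76. In the mature neutrophil gate it ran from 0.65 to 1.17, so a call there depended on the gate. The macrophage gate supplied 46.3% of the Socs3 UMIs with THP and 15.7% with vehicle. There were fewer cells in the neutrophil gates of the THP library; with both neutrophil gates left out, the log2 ratio of Socs3 over the remaining cells was 2.10.

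In macrophage-gated cells Socs3 was spread over many cells at 1 or few UMIs each. Of 3705 THP cells, 2844 had none, 588 had 1, 158 had 2 and 115 had 3 or more, with a maximum of 6 in 1 cell. Of 2221 vehicle cells, 2160 had none and 52 had 1. At 5000 UMIs per cell, 5.51% (4.78 to 6.31) of THP macrophage-gated cells had a Socs3 UMI, against 0.604% (0.322 to 1.03) of vehicle cells; before thinning the shares were 23.2% and 2.75%. The median cell of this gate had 20923 and 22810 UMIs. No gate was taken as one that lacks Socs3, and the part of free RNA was not tested. The small B-lineage and mast cell or basophil gates had 0 Socs3 UMIs in 77 and 59 THP cells. With THP their levels were thus up to 15.4 CPM and 7.94 CPM, from median depths of 1981 and 5515 UMIs. They also had 0 in 57 and 46 vehicle cells. The lowest share among the 7 gates with THP was that of the osteoclast-like gate, where 8 of 535 thinned cells (0.648% to 2.93%) had a UMI with THP and 0 of 564 (up to 0.652%) with vehicle, from median depths of 23394.5 and 28741 UMIs.

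Across gates, the highest Socs3 level in either library was in the stromal gate, defined by collagen genes, Sparc and Dcn. Its cells had 86.5 CPM (74.2 to 100) in 80 THP cells and 33.4 CPM (27.2 to 40.7) in 71 vehicle cells, separated from the next gate in both. Over all cells of each library, not within the gate, the stromal marker genes summed to 51.0 CPM with THP and 219 CPM with vehicle. Within the gate, the median cell had 4857 CPM of these markers with THP and 12494 CPM with vehicle. The median stromal-gated cell had 20684.5 and 39286 UMIs. The part of marker level or depth in the Socs3 levels was not tested. Next came the mature neutrophil gate, at 25.7 CPM (17.8 to 36.0) and 10.9 CPM (6.54 to 17.0) on 34 and 19 UMIs. With THP the MHC class II high gate, at 17.8 CPM (15.5 to 20.3), was not separated from mature neutrophils and stood above the macrophage gate. With vehicle the order was another: macrophage-gated cells were among the lowest of the large gates, with an interval that overlapped those of monocytes, progenitors and immature neutrophils at 1.61 to 2.07 CPM.

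**Figure D2:**
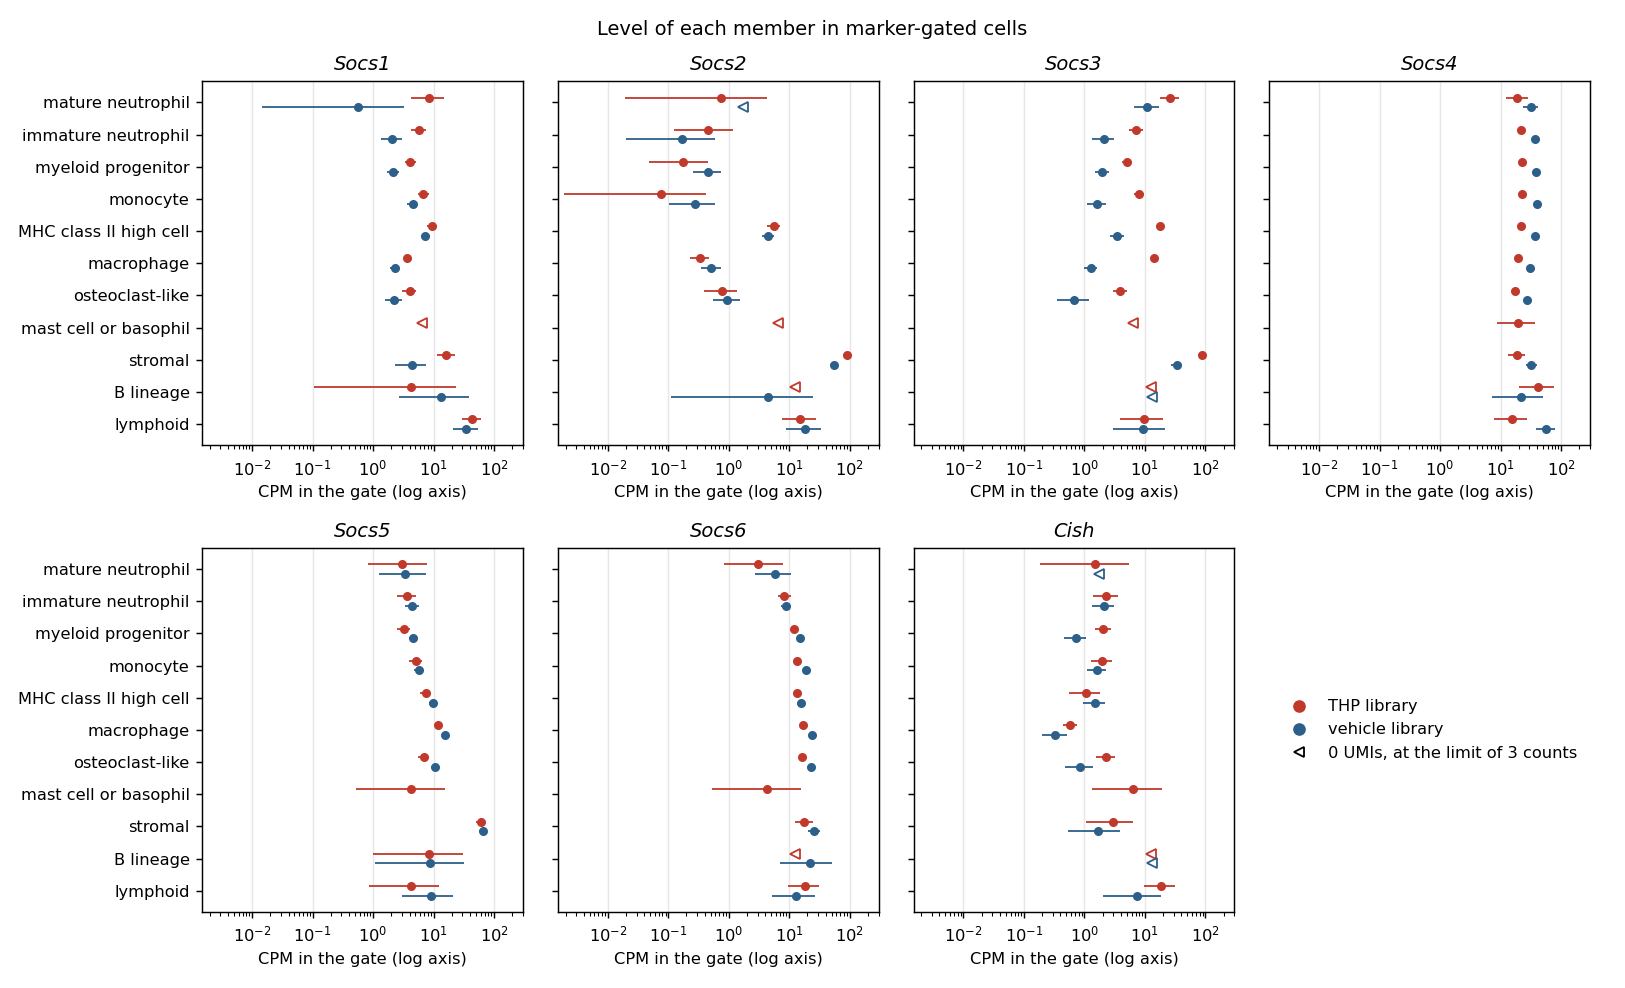
Each panel is 1 gene, rows are marker gates with at least 50 cells in that library, points are CPM within the gate for THP (red) and vehicle (blue) on a log axis, and bars are exact Poisson 95% intervals; open triangles mark 0 UMIs, drawn at the level of 3 counts. Socs3 is higher with THP in every large gate, Socs2 stands highest in the stromal gate, and Socs4 lies between 17.0 and 22.4 CPM with THP in the 7 large gates.

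Socs1 (ENSMUSG00000038037, chromosome 16, 10782240 to 10785536, minus strand), the other inducible brake, was at 4.80 CPM (4.52 to 5.09) with THP and 3.28 CPM (3.04 to 3.54) with vehicle. The ratio was 1.46-fold (1.33 to 1.61), and Socs1 stayed under the 10 CPM minimum in both. It was higher with THP in 7 of 7 gates, and the counting interval did not hold a ratio of 1 in 6 of them; the exception was the MHC class II high gate, at 9.33 CPM and 7.35 CPM (ratio 1.27, 0.974 to 1.65). In the macrophage gate the values were 3.66 CPM and 2.29 CPM, a ratio of 1.60 (1.31 to 1.97), against 11.0 for Socs3 in the same cells. In the immature neutrophil gate the Socs1 ratio was 2.79 (1.70 to 4.71), and in mature neutrophils 11 UMIs stood against 1 (ratio 14.6, 2.12 to 627). On the log2 scale of CPM + 1 the mature neutrophil value was 2.57, and it was 1.23 with gate thresholds halved.

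The lymphoid gate (Nrgn, Xcl1, Il2rb, Cd3g, Klrb1c and Gzma) had the highest Socs1 level in both libraries, at 43.1 CPM (29.3 to 61.2) in 89 THP cells and 34.7 CPM (20.9 to 54.2) in 70 vehicle cells. These rest on 31 and 19 UMIs, and their intervals overlap between libraries; with vehicle the lymphoid gate was not separated from the B-lineage gate, which had 3 UMIs. With THP the stromal gate followed at 16.2 CPM (11.2 to 22.8), not separated from the MHC class II high gate. With vehicle the stromal level was 4.35 CPM (2.31 to 7.43). The MHC class II high gate stood above the monocyte gate with vehicle, at 7.35 CPM (6.09 to 8.78) against 4.50 CPM (3.66 to 5.49). The maximum of Socs1 UMIs in 1 cell was 21 with THP and 17 with vehicle. The 1% of cells with most Socs1 UMIs held 33.5% of them with THP and 33.0% with vehicle. Fewer UMIs raise this share by construction. It was 18.3% and 47.0% for Socs3 and 58.2% and 74.7% for Cish. Socs1 and Socs3 were found together in 4 of 3556 thinned THP macrophage-gated cells, where the product of their shares gives 3.69.

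Cish (ENSMUSG00000032578, chromosome 9, 107296026 to 107302784, plus strand) was the member with the fewest UMIs. It had 268 with THP, at 1.19 CPM (1.05 to 1.34), and 190 with vehicle, at 0.915 CPM (0.789 to 1.05), a ratio of 1.30 (1.08 to 1.58). The counting interval did not hold a ratio of 1 in 3 gates. These were the myeloid progenitor gate, at 2.05 CPM against 0.729 CPM (2.81-fold, 1.68 to 4.82), the osteoclast-like gate, at 2.25 CPM against 0.839 CPM (2.68-fold, 1.41 to 5.32), and the macrophage gate, at 0.587 CPM against 0.327 CPM (1.79-fold, 1.05 to 3.20). The progenitor difference rests on 46 and 24 UMIs. In the monocyte, immature neutrophil and MHC class II high gates the intervals held 1, and mature neutrophils had 2 and 0 UMIs. The highest level was again in the lymphoid gate, at 18.1 CPM (9.62 to 30.9) and 7.31 CPM (1.99 to 18.7) on 13 and 4 UMIs, not separated from the next gate. Among the large gates the macrophage gate was lowest with THP, at 0.587 CPM (0.442 to 0.764), not separated from the MHC class II high gate at 1.06 CPM (0.566 to 1.82). An antisense gene annotated over Cish, Gm17041, had 0.00445 CPM and 0.00963 CPM.

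Socs2 (ENSMUSG00000020027, chromosome 10, 95385362 to 95417180, minus strand) did not differ between the libraries beyond counting error, with 1.47 CPM (1.31 to 1.64) and 1.64 CPM (1.47 to 1.83), a ratio of 0.894 (0.766 to 1.04). Its log2 ratio of -0.10 ran from -0.17 to 0.18 over the other settings tried. Its UMIs were held by few cells. The 1% of cells with most Socs2 UMIs held 88.2% of them with THP and 83.0% with vehicle. For Cish, which had fewer UMIs, this share was 58.2% and 74.7%. The stromal gate, 0.660% and 0.647% of cells, supplied 55.8% and 48.4% of the Socs2 UMIs. There the level was 90.4 CPM (77.8 to 104) and 55.2 CPM (47.1 to 64.3), and 68.8% (57.4 to 78.7) of THP and 73.2% (61.4 to 83.1) of vehicle stromal-gated cells had a UMI. In the macrophage gate, at similar median depth with THP, that share was 0.702% (0.459 to 1.03), and with vehicle it was 1.17% (0.766 to 1.71). At 5000 UMIs per cell, 41.0% of 78 THP and 14 of 70 vehicle stromal-gated cells had one, and 6 of 3556 and 9 of 2154 macrophage-gated cells.

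The next highest Socs2 levels were those of the lymphoid gate, at 15.3 CPM (7.63 to 27.4) and 18.3 CPM (8.77 to 33.6), and the MHC class II high gate, at 5.56 CPM (4.32 to 7.05) and 4.53 CPM (3.56 to 5.69). By number of UMIs, the MHC class II high gate supplied 20.6% with THP and 21.7% with vehicle, the macrophage gate 9.39% and 8.80%, and the lymphoid gate 3.33% and 2.93%. Within the MHC class II high gate, cells with UMIs of both Ccr7, the receptor that guides dendritic cells to lymph nodes, and Fscn1, the actin-bundling protein of mature dendritic cells, were looked at after these levels were known, since Socs2 is known in mature dendritic cells. There were 18 such cells with THP and 21 with vehicle. They had 38 Socs2 UMIs, or 229 CPM (162 to 314), and 53 UMIs, or 220 CPM (165 to 288). The other 795 and 829 cells of the gate had 2.49 CPM (1.68 to 3.55) and 1.30 CPM (0.808 to 1.99). The contrast was present in both libraries, although the Ccr7 and Fscn1 cells were the shallower ones, with median UMIs of 5230.5 and 5378 against 13307 and 18021. In these few cells Socs3 had 0 and 1 UMIs, Cish 0 and 0, and Socs1 2 and 6. For Socs1 this was 12.1 CPM (1.46 to 43.5) against 9.29 CPM (7.65 to 11.2) in the other cells with THP, and 24.9 CPM (9.14 to 54.2) against 7.08 CPM (5.84 to 8.51) with vehicle.

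**Figure D3:**
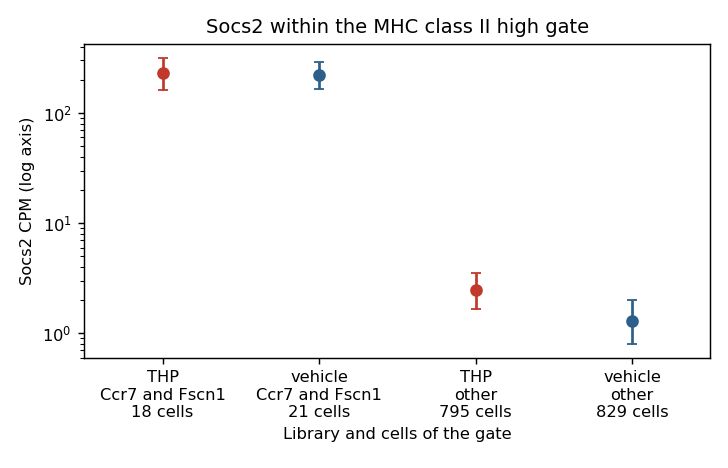
Points are Socs2 CPM on a log axis in cells of the MHC class II high gate, split by library and by whether a cell had UMIs of both Ccr7 and Fscn1, and bars are exact Poisson 95% intervals. Both libraries have about 220 to 229 CPM in the Ccr7 and Fscn1 cells and 1.30 to 2.49 CPM in the rest.

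Socs4, Socs5 and Socs6 were lower with THP, and none was called. Socs4 (ENSMUSG00000048379, chromosome 14, 47276931 to 47296102, plus strand) had 19.9 CPM (19.3 to 20.5) with THP and 33.8 CPM (33.0 to 34.6) with vehicle, so the vehicle level was 1.70-fold higher (1.64 to 1.77). Its log2 ratio of -0.74 was above that of 9.79% of genes of at least 10 CPM. The sign held in 7 of 7 gates, within a narrow range of -0.83 to -0.64, and no counting interval held a ratio of 1. Socs4 was also of like level across the large gates: the 7 gates lay between 17.0 CPM and 22.4 CPM with THP and between 27.1 CPM and 40.5 CPM with vehicle. No neighbours in either order were separated, although with vehicle the monocyte gate, at 40.5 CPM (37.9 to 43.3), lay above the macrophage gate, at 31.1 CPM (29.7 to 32.5), and the osteoclast-like gate, at 27.1 CPM (24.8 to 29.7). The lymphoid gate had 15.3 CPM (7.63 to 27.4) with THP and 56.7 CPM (38.5 to 80.4) with vehicle, on 11 and 31 UMIs. In these libraries the ratio was lower for genes with long transcripts, and the longest annotated Socs4 transcript has 6877 bases. Genes of like length had a median log2 ratio of -0.46, which leaves -0.28 for Socs4.

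Socs5 (ENSMUSG00000037104, chromosome 17, 87107679 to 87137839, plus strand) had 9.53 CPM (9.13 to 9.94) and 11.0 CPM (10.5 to 11.4), a ratio of 0.868 (0.818 to 0.921) for THP over vehicle. Its log2 ratio of -0.19 was close to the median of all genes, and it became 0.07 with TMM or RLE scaling and 0.19 with the length correction. Socs5 was highest in the stromal and macrophage gates. The stromal gate had 61.4 CPM (51.1 to 73.2) and 65.9 CPM (57.0 to 75.8), and the macrophage gate came next at 11.7 CPM (11.0 to 12.4) and 15.6 CPM (14.6 to 16.6), separated from the next gate with vehicle and, with THP, not from the B-lineage gate, which had 2 UMIs. The macrophage gate supplied 51.3% of Socs5 UMIs with THP and 39.6% with vehicle. The neutrophil and progenitor gates were lowest, at 3.03 to 4.65 CPM over both libraries. Within the macrophage gate the THP level was 0.754 of the vehicle level (0.690 to 0.824).

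Socs6 (ENSMUSG00000056153, chromosome 18, 88665224 to 88927481, minus strand) had 14.9 CPM (14.4 to 15.4) and 19.3 CPM (18.7 to 19.9), with a vehicle level 1.29-fold higher (1.23 to 1.35). The log2 ratio of -0.35 became -0.08 with TMM or RLE scaling and turned to 0.09 with the length correction. The macrophage and osteoclast-like gates were not separated, at 16.9 CPM (16.0 to 17.7) and 16.5 CPM (14.4 to 18.7) with THP and 24.1 CPM (22.8 to 25.4) and 23.3 CPM (21.1 to 25.7) with vehicle. The highest gate was the lymphoid gate with THP, at 18.1 CPM (9.62 to 30.9), and the stromal gate with vehicle, at 26.1 CPM (20.6 to 32.6). Neither was separated from the next gate. Immature neutrophils were lower, at 8.32 CPM (6.51 to 10.5) and 8.77 CPM (7.18 to 10.6). Mature neutrophils had 3.03 CPM (0.825 to 7.75) and 5.72 CPM (2.74 to 10.5) on 4 and 10 UMIs. The interval of the THP-to-vehicle ratio lay below 1 in 4 of 7 gates for Socs6 and in 4 of 7 for Socs5. The median log2 ratio of all genes of at least 10 CPM was itself below 0 in each of these gates. It ran from -0.43 in mature neutrophils to -0.17 in macrophages and progenitors, and was -0.22 in the MHC class II high gate.

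**Figure D4:**
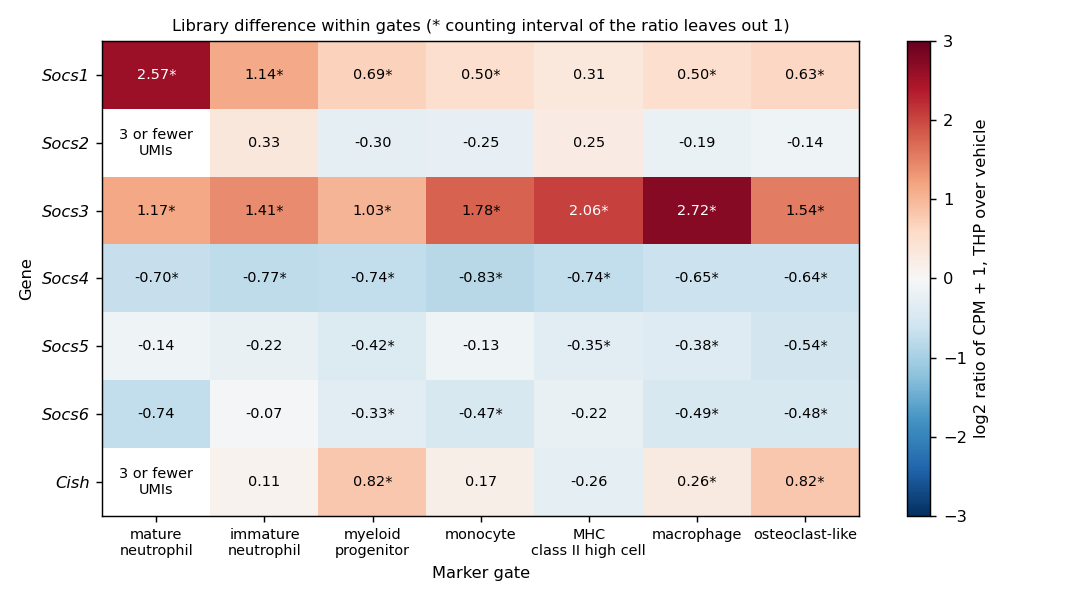
Cells show the log2 ratio of CPM + 1, THP over vehicle, for each gene (rows) in the gates with at least 200 cells per library (columns), from blue (lower in THP) to red (higher); a star marks a counting interval of the ratio that leaves out 1. Socs3 runs from 1.03 to 2.72 and Socs4 from -0.83 to -0.64.

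Over 14 sums, the 7 large gates in each of 2 libraries, the genes of at least 10 CPM whose levels followed each member most closely were named by Pearson's r of log2(CPM + 1). The sums share libraries and depth, and the values are a description. For Socs3 these were Il1b (r = 0.938), which encodes interleukin-1β, Bcl3 (0.928), a nuclear partner of NF-kB, Pde4b (0.903), Spi1 (0.894) and Birc3 (0.893). For Socs4 they were Dido1 (0.987), Wapl (0.981), Cep350 (0.966), Parg (0.963) and Ankle2 (0.961). For Socs5 they were Fam126a (0.968), Bank1 (0.967), Srgap2, Dab2 and Etv5 (each 0.965), and for Socs6 Hsd17b4 (0.986), Mbtps2 (0.985), Ptp4a2 (0.983), Vac14 (0.982) and Psmd2 (0.980). Among the members, Socs5 and Socs6 had an r of 0.78 with each other and Socs3 one of -0.67 with Socs6.

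The rest of the pathway was read from a list of 82 JAK-STAT genes, of which 55 reached 10 CPM. Of these, 2 were called higher and 2 lower, beside 0.911% and 2.97% of all genes. Among 16 ligands 1 reached the minimum, Ebi3, a subunit of interleukin-27 and interleukin-35, at 90.9 CPM against 54.9 CPM. Csf3, which encodes G-CSF, had 253 UMIs with THP and 2 with vehicle, at 1.13 CPM (0.991 to 1.27) and 0.00963 CPM (0.00117 to 0.0348); the ratio of 117 has a counting interval of 32.0 to 970. Il6, whose receptor uses gp130, had 0.796 CPM against 0.188 CPM, and Lif 0.436 CPM against 0.178 CPM. Il10 had 1.64 CPM against 1.03 CPM and Osm 5.10 CPM against 4.52 CPM. Over the settings tried, the log2 ratio ran from 0.31 to 1.64 for Il6 and from 0.04 to 0.95 for Lif. The lowest Lif value was that without the stromal gate. For Il10 the range was 0.20 to 0.63 and for Osm -0.07 to 0.38. Il12b, which encodes a subunit of interleukin-12 and interleukin-23, was lower with THP over all cells. It had 51 UMIs against 146 (ratio 0.323, 0.230 to 0.447). Within gates the Il12b log2 ratio was -1.88 in MHC class II high cells, -0.31 in progenitors and 0.49 in macrophages. In the other large gates it was 0.00. On this scale that is also the value when neither library has a UMI, so it is not read as an equal level. With so few Il12b UMIs, the gate values rest on small counts. Both Ifng and Ifnb1 were under 0.03 CPM in either library.

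Of 18 receptors at 10 CPM, 5 had a ratio above 0 and 13 below, or 8 and 10 with TMM scaling. Il6ra, the interleukin-6 receptor chain, was called lower, with a log2 ratio of -1.12 from 22.8 CPM (22.2 to 23.4) and 50.9 CPM (49.9 to 51.8). With TMM scaling it was -0.85 and with the length correction -0.55, and it was called with neither. In the 7 gates its log2 ratio ran from -1.45 in mature neutrophils to -0.93 in macrophages. Il6st, which encodes gp130, had 17.9 CPM against 26.7 CPM, a log2 ratio of -0.55 that became 0.02 with the length correction. Csf3r, the G-CSF receptor, had 20.4 CPM against 31.0 CPM, a log2 ratio of -0.58 that became -0.19 with the same mix of gates. Within gates the Csf3r ratio was not of one sign: it was -0.85 in mature neutrophils, and 0.18, 0.17 and 0.13 in the monocyte, MHC class II high and macrophage gates.

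All 7 STAT genes had lower values with THP, with a median log2 ratio of -0.40, but with TMM scaling 2 of them, Stat5a and Stat6, were above 0 and the median was -0.12. Stat4 was called lower, with 1176 UMIs against 2486 (log2 ratio -1.06, or -0.81 with TMM scaling, not called). Stat3 had 37.7 CPM against 49.0 CPM, a log2 ratio of -0.37 that became 0.06 with the length correction. The median of the STAT genes was -0.10 under that correction. Stat2 had 18.0 CPM against 24.0 CPM, Stat5a 11.2 CPM against 13.2 CPM, Stat5b 15.5 CPM against 23.9 CPM and Stat6 51.3 CPM against 61.5 CPM. Of the kinases, Jak1 had 114 CPM against 153 CPM and Jak2 21.7 CPM against 28.8 CPM. Their log2 ratios of -0.42 and -0.39 became -0.04 and 0.00 with the length correction. Tyk2 had 18.6 CPM against 17.8 CPM and Jak3 6.92 CPM against 6.28 CPM.

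Among the partners through which the SOCS box recruits a ubiquitin ligase, the adaptors Elob and Eloc and the ring protein Rnf7 had log2 ratios of 0.29, 0.45 and 0.27, the scaffold Cul5 one of -0.20 and the conjugating enzyme Ube2f one of 0.76, which was called with TMM scaling or the length correction. Socs7, the remaining family gene, had 10.2 CPM against 9.67 CPM. Of 9 other inhibitors at 10 CPM none was called. Of 12 STAT target genes at that level, 7 had a log2 ratio above 0 and 5 below, or 9 and 3 with TMM scaling. Those below 0 without it were Id1 (-0.46), Irf1 (-0.35), Irf9 (-0.30), Ccnd1 (-0.17) and Bcl6 (-0.01). The 2 called higher were Bcl3, at 28.4 CPM against 9.71 CPM (log2 ratio 1.46), and Cxcl10, at 75.2 CPM against 19.1 CPM (1.92). Cxcl10 encodes a chemokine induced by interferons. Pim1, a kinase gene used as a STAT5 and STAT3 readout, had 59.4 CPM against 37.4 CPM (0.66). With TMM scaling Junb (log2 ratio 0.82 without it) was called higher too. Arg1, at 9.38 CPM against 4.72 CPM (0.86) and so not among the 12, was also called with TMM scaling, under which it passed the 10 CPM minimum. Several of these targets are also known to respond to NF-kB.

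**Figure D5:**
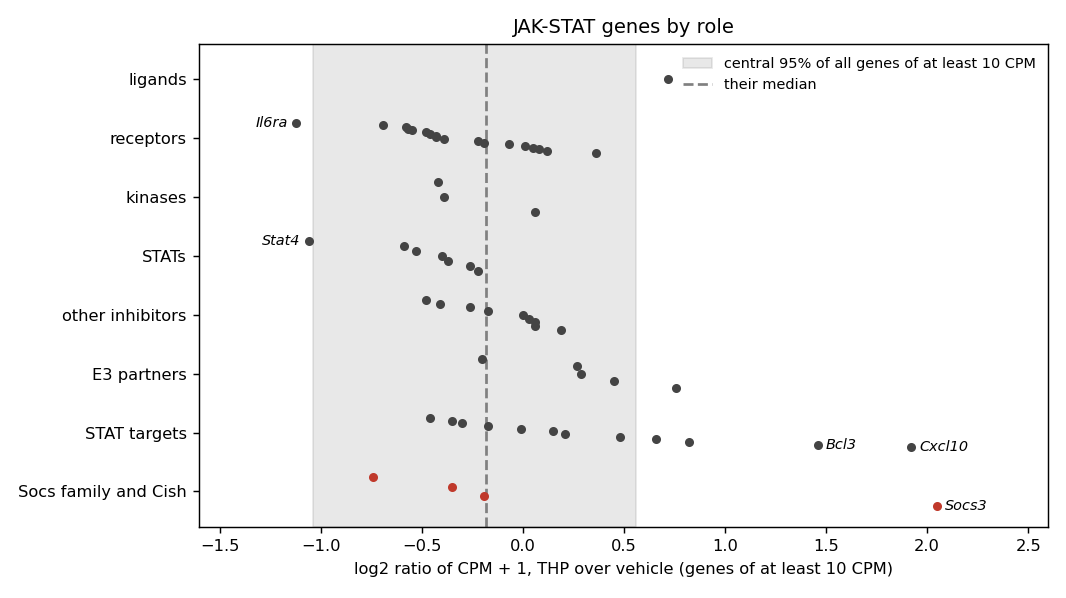
Points are log2 ratios of CPM + 1, THP over vehicle, for genes of at least 10 CPM, grouped by role; the grey band is the central 95% of all such genes (-1.04 to 0.56) and the dashed line their median of -0.18. Socs3 at 2.05 lies right of the band, as do Bcl3, Cxcl10, Junb (0.82), Ube2f (0.76), Ebi3 (0.72) and Pim1 (0.66), and Il6ra and Stat4 lie left of it.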

How the data were processed

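Both libraries are Chromium droplet libraries of poly(A) RNA, per the labels' protocols. The deposited values are raw UMI counts per gene and cell barcode, written by software version 3.1.0, per the file headers. The submitters' processing notes name Cell Ranger, bcl2fastq, STAR and mm10, without roles; neither the annotation release nor the strand setting was given in the sources used here. Cells with at least 500 genes, at least 1000 UMIs and at most 10% mitochondrial UMIs were kept, 224825484 UMIs in the THP and 207662132 in the vehicle library; doublets and free RNA were not removed.

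UMIs were summed per library or gate and divided by the total (CPM). Levels have exact Poisson intervals, shares exact binomial (Clopper-Pearson) intervals, and ratios exact conditional binomial intervals, all at 95%. A gene was called at 10 CPM or more in a library and 2-fold on the CPM + 1 scale. With 1 library per group no test was made and no p-value is given. Gate thresholds were set on the marker shares of both libraries together. TMM factors came from edgeR 4.0.16. Coordinates and transcript lengths are those of GENCODE M21 (GRCm38). The calling rule was tried on simulated Poisson counts with planted changes. These held no variation between cultures, so the trial does not bear on replicate error. The named genes were the members, the JAK-STAT list (by count, with its called genes, kinases and STATs), and the 5 genes closest in pattern to each member of at least 10 CPM; other list genes named in the text, and the Ccr7 and Fscn1 split, were chosen after values were seen. The members and lists were chosen with earlier results of these data known. One result that the naming rule covers is not reported here.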

Additional observations from a re-analysis of the deposited data

How the results depend on the processing

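Socs3 was called in all 15 alternatives in which the count of members could be taken, and it was the 1 member called in 14 of them. At 1.5-fold the count was 2, with Socs4 lower. Of all 8012 genes, 1387 were called lower and 187 (2.33%) higher at 1.5-fold, so the Socs4 call is not read as a result about Socs4. TMM factors gave log2 ratios of 0.66 for Socs1, 2.28 for Socs3, -0.46 for Socs4, 0.07 for Socs5 and -0.08 for Socs6, and RLE factors 0.66, 2.28, -0.47, 0.07 and -0.08. With the length correction Socs1 and Cish had 0.59 each, Socs2 0.18, Socs4 -0.28, Socs5 0.19 and Socs6 0.09, and the median of the members was 0.19. Equal weight per cell gave 0.59 for Socs1 and 1.71 for Socs3. A pseudocount of 0.1 CPM gave 2.42 for Socs3, the same mix of gates -0.32 for Socs5, and cells thinned to 5000 UMIs -0.43 for Socs6. The cause of these moves was not tested. Over the 13 alternatives each, Socs1 (0.39 to 0.66), Socs3 (1.71 to 2.42), Socs4 (-0.76 to -0.28) and Cish (0.16 to 0.59) kept their sign, and Socs2 (-0.17 to 0.18), Socs5 (-0.32 to 0.19) and Socs6 (-0.43 to 0.09) did not. Leaving out the stromal gate, both neutrophil gates or shared barcodes was chosen after seeing the data. With gate thresholds doubled the monocyte-gate ratios were -0.64 for Socs4 and -0.61 for Socs5, and with only cells passing 1 gate the stromal levels of Socs2 and Socs3 with THP were both 107 CPM. Shares of cells with a UMI depend on the depth of thinning by construction. At 2500 UMIs they were, with THP and with vehicle, 1.46% and 0.813% for Socs1, 3.09% and 0.592% for Socs3, 5.21% and 8.28% for Socs4, 1.93% and 2.37% for Socs5, 3.38% and 4.05% for Socs6, 0.405% and 0.261% for Cish, and 0.450% with THP for Socs2. Without thinning they were 6.85% and 5.16% for Socs1, 1.32% and 1.52% for Socs2, 15.6% and 3.27% for Socs3, 28.2% and 41.7% for Socs4, 14.1% and 15.5% for Socs5, 21.9% and 26.7% for Socs6, and 1.92% and 1.43% for Cish. With only cells passing 1 gate the immature neutrophil ratios of Socs5 (0.13), Socs6 (0.08) and Cish (-0.33) changed sign. So did the mature neutrophil ratio of Socs5 with gate thresholds halved (0.06), and with thresholds doubled that of Socs6 (0.15) and the MHC class II high ratio of Cish (0.04). With only cells passing 1 gate, the highest gate of Socs4 in the THP library was the monocyte gate. No paired analysis was possible because each group has 1 library. Depth limits Cish and Socs2 most, with 190 to 341 UMIs per library.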
